A study of Mus musculus with 12 samples.

Results

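The zinc finger genes that mouse nomenclature names Zfp and a number, most of them of the C2H2 type, were described. They were measured across 12 RNA-Seq libraries of RAW 264.7 cells, a mouse macrophage line. Members were chosen by symbol and by read count: 366 genes, which are the protein-coding genes called Zfp followed only by digits and Gm14295, an uncharacterised zinc finger gene, were reduced to the 264 with a mean of at least 50 estimated reads over the 12 libraries. All 264 passed the filter on low counts, among 13906 genes tested in all. Of the 102 family genes under the threshold, 40 also passed that filter and 9 had no read in any library. For 48 h all cells had received extracellular vesicles (EVs, dosed at 3 µg of protein in each ml) released by the murine endothelial line MS-1. The EVs carried an electroporated mimic, which was either a control sequence (ctrl-EVs) or one of 3 microRNAs, namely miR-222-3p, miR-183-5p and miR-142-5p, after which the remaining groups (miR-EVs) are named. Each group had 3 libraries, numbered 1 to 3 in the titles, and every library came from the same cell line grown in the same vesicle-depleted serum. The labels do not say whether the libraries of a group came from separate cultures. The study's methods state in general terms that experiments were repeated, without naming the RNA-Seq libraries, so the tests measure the spread between libraries, which may be technical. Zfp950 and Gm14295 were selected on these data, Zfp950 for its rise over all miR-EVs and Gm14295 for its rise with miR-183-5p-EVs. Their changes in those comparisons are therefore given as a description without a test, and the comparison asked is whether the other members rose with them once the length of the transcripts was taken into account.

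Zinc finger proteins of the C2H2 type bind DNA, and in some cases RNA, through small folds in which cysteines and histidines hold a zinc ion. The largest group in mammals carries a KRAB domain at the start of the protein, which recruits the corepressor Trim28 and, through it, histone methylation and heterochromatin proteins to the bound site. KRAB zinc finger genes lie in clusters of recent duplicates, and many of them silence retroelements. Other members of the same nomenclature have no KRAB domain and act as transcription factors, splicing or mRNA decay factors or sensors of stalled ribosomes.

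The libraries held 16294611 to 22974853 estimated read pairs, and a count of 3 corresponded to 0.131 to 0.184 CPM (library-scaled counts), the level that a count of 0 still allows. Of 8 macrophage markers, 7 had mean levels of 6.13 TPM or more (a library-scaled level per transcript length), among them Cd68 at 355 TPM, whereas Mrc1 had at most 0.0967 TPM. Of 8 endothelial markers, Cldn5 had no read, and Vwf and Pecam1, the highest, had means of 2.21 and 3.26 TPM. None of the 11 markers with enough counts for a test passed the threshold in any comparison. Libraries with the same number resembled each other across groups, with correlations of their deviations from the group means of 0.409 to 0.797 over 18 pairs, and fits were run both without and with the number as a block.

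The members were expressed at low to moderate levels. Their mean levels ran from 0.794 to 164 TPM with a median of 8.63 TPM, against a median of 17.4 TPM for all tested genes, and 79 of 264 lay under 5 TPM. The summed level of the family was 3526 to 4598 TPM per library. Members were found on 20 chromosomes, with 69 on chromosome 7 and 33 on chromosome 17. A KRAB-like pattern, defined as at least 8 matches in a template of 11 positions in a translated transcript, was found in 156 members, and the median number of C2H2 finger patterns was 11 with a maximum of 37. Because members were chosen by symbol, not all need be of the C2H2 type. The 4 members without a C2H2 finger pattern were Zfp36, Zfp330, Zfp703 and Zfp839. Members with a KRAB-like pattern had a median level of 6.31 TPM and the 108 others 15.4 TPM. The highest mean levels belonged to Zfp346 at 164 TPM, Zfp106 at 120.4 TPM, Zfp207 at 113 TPM, Zfp706 at 104 TPM and Zfp710 at 97.6 TPM. At the threshold, Zfp808, Zfp791 and Zfp429 were just inside with 53.7, 60.1 and 61.5 mean reads, and Zfp651, Zfp85 and Zfp869 were just outside with 49.9, 49.4 and 46.8.

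Zfp950 and Gm14295 share an annotation feature. Both have an annotated coding transcript of 192 nt made of 2 exons of 127 and 65 nt, which holds the stretch encoding the KRAB domain. In Zfp950 (GRCm38, chr19:61053840-61140840, minus strand, 10 transcripts) this is ENSMUST00000148569.3, spanning chr19:61127003-61127564. In Gm14295 (chr2:176798612-176811223, plus strand, 3 transcripts) it is ENSMUST00000179435.1, spanning chr2:176807362-176807759. The sequences are shown because few reads assigned to them held a large share of the level of both genes in several miR-EV libraries. They are identical at 160 of 192 positions (83.3%) when laid end to end, and capitals mark the 32 positions at which they differ. Both were taken from the GENCODE transcript sequences of build GRCm38.
Zfp950: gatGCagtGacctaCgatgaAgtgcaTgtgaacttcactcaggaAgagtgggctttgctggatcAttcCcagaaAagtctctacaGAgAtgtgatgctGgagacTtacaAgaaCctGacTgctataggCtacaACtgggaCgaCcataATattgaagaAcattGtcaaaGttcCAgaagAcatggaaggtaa
Gm14295: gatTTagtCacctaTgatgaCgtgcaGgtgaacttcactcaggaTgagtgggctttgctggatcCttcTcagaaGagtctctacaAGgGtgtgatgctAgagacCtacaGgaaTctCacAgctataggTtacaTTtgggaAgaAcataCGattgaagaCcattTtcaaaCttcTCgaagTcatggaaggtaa
The same stretch is contained in a longer transcript of each gene, so a read pair from it can belong to either. Zfp950 also has a transcript of 171 nt, ENSMUST00000178819.1 (chr19:61119420-61119590).

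Zfp950, a KRAB-like member with 17 finger patterns, had the following counts after normalisation with the length correction, which divides each count by the mean effective length of the transcripts in use. The ctrl-EV libraries 1 to 3 had 264, 215 and 232 normalised counts. Those of miR-142-5p-EVs had 332, 341 and 319, those of miR-183-5p-EVs 296, 319 and 391, and those of miR-222-3p-EVs 297, 268 and 302. Every miR-EV library thus lay above every ctrl-EV library, and all 9 exceeded their same-numbered ctrl-EV library. The group means, with their spread, were 237 ± 25.1 (SD, n = 3) for ctrl-EVs and 318 ± 34.9 (SD, n = 9) for all miR-EVs. With the block, the log2 fold change over all miR-EVs was 0.42 (SE 0.12). By mimic it was 0.28 (SE 0.16) after miR-222-3p-EVs, 0.49 (SE 0.16) after miR-183-5p-EVs and 0.47 (SE 0.16) after miR-142-5p-EVs. The 4 comparisons and the 9 pairs share their ctrl-EV libraries, so counts of pairs are not independent of each other. In this bulk RNA, a change in the share of cells that express a gene and a change in the RNA of each cell cannot be told apart.

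Gm14295, a KRAB-like member with 25 finger patterns in a cluster of similar genes on chromosome 2, spread more widely. Its ctrl-EV libraries had 110, 49.3 and 62.1 normalised counts. The libraries of miR-142-5p-EVs had 187, 165 and 90.5, those of miR-183-5p-EVs 183, 154 and 113, and those of miR-222-3p-EVs 146, 54.0 and 101. All 9 exceeded their same-numbered ctrl-EV library, but the groups overlapped, since ctrl-EV library 1 lay above 3 miR-EV libraries. With the block, the log2 fold change over all miR-EVs was 0.85 (SE 0.25). By mimic it was 0.47 (SE 0.29) after miR-222-3p-EVs, 1.05 (SE 0.29) after miR-183-5p-EVs and 0.999 (SE 0.29) after miR-142-5p-EVs. Of the sequence words of 31 bases in its transcripts, 85.0% also occurred in other genes, and Gm14419 and Gm2004 each held 39.2% of them, so its estimated counts depend on how Salmon divided shared reads and are uncertain. For Zfp950 the share was 4.89%, and this gene overlaps Grk5 on the opposite strand, whose reads are told apart only if the assignment used the strand, which is not given in the sources used here.

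**Figure D1:**
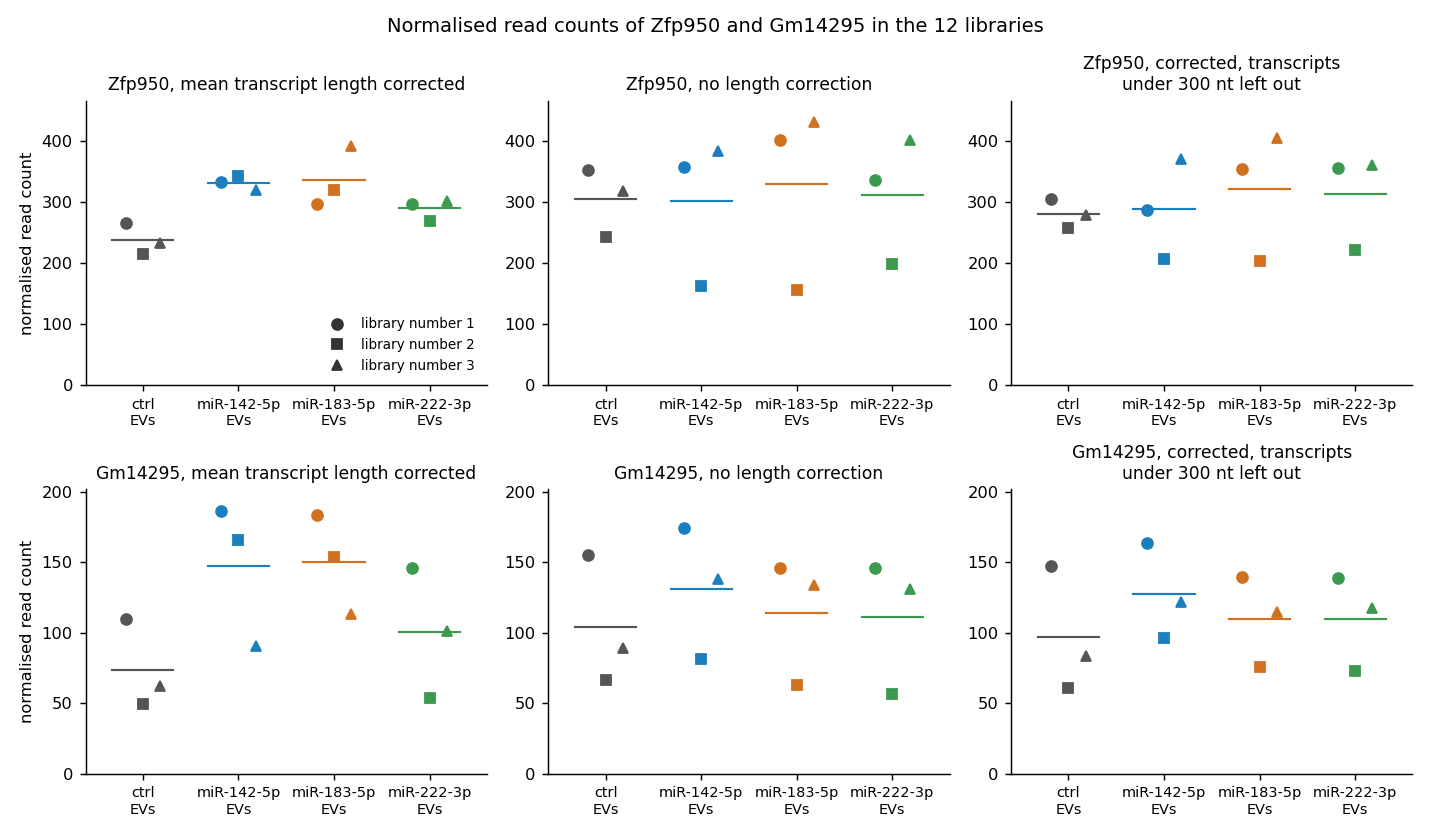
Normalised read counts (vertical axes, from 0) of Zfp950 (top) and Gm14295 (bottom) in the 4 groups. Points are libraries, their shape gives the library number, and lines are group means. With the length correction (left) all 9 miR-EV libraries of Zfp950 lie above the 3 ctrl-EV libraries, whereas without it (middle) and after leaving out transcripts under 300 nt (right) library 2 of each miR-EV group lies below all ctrl-EV libraries of Zfp950.

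The reads assigned to the shortest transcripts were few and fell almost entirely in miR-EV libraries. For Zfp950, ENSMUST00000148569.3 had 0 estimated reads in the 3 ctrl-EV libraries. It had 3.67 reads in library 2 of miR-142-5p-EVs, 3.65 and 1.60 reads in libraries 2 and 3 of miR-183-5p-EVs, and 1.957 reads in library 2 of miR-222-3p-EVs. The transcript of 171 nt had 2.29 reads in library 1 of miR-142-5p-EVs, and 0.215 and 0.199 reads in ctrl-EV library 1 and miR-142-5p-EV library 3. The remaining libraries of Zfp950 had no read on either transcript, and the summed reads of the 9 miR-EV libraries were 13.4 of 3033 reads of the gene. For Gm14295, ENSMUST00000179435.1 had 0, 0.144 and 0 reads in the ctrl-EV libraries. The libraries of miR-183-5p-EVs had 3.40, 3.31 and 1.18 reads, those of miR-142-5p-EVs 2.90, 2.86 and 0, and those of miR-222-3p-EVs 1.82, 0 and 0.568, which sum to 16.0 of 1144 reads of the gene. Per library, these values are at or near the floor of 3 counts. Some miR-EV libraries without such a read also lay above the ctrl-EV library of their number, namely library 1 of miR-183-5p-EVs and libraries 1 and 3 of miR-222-3p-EVs for Zfp950, and library 3 of miR-142-5p-EVs and library 2 of miR-222-3p-EVs for Gm14295.

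These few reads carried a large part of the level per transcript. The effective length of a 192-nt transcript, its listed length less the fragment length as Salmon computes it, was 42.5 to 49.9 nt, against 2542 to 2555 nt for the Zfp950 transcript of 2753 nt. A single read was thus worth 1.37 to 1.64 TPM on the 192-nt transcript of Zfp950 and 0.0230 to 0.0302 TPM on that of 2753 nt. In library 2 of miR-142-5p-EVs, 3.67 of 125 reads of Zfp950 made up 49.8% of its TPM, and the mean effective length of the gene fell to 797 nt, against 1913 to 2447 nt in the ctrl-EV libraries. In library 2 of miR-183-5p-EVs the share was 46.6% and the mean length 813 nt. For Gm14295 the share reached 63.0% and the mean length 493 nt in that library, against 1651 to 1846 nt with ctrl-EVs. Averaged over libraries, short transcripts held 1.25% of the TPM of Zfp950 with ctrl-EVs and 19.1% with miR-EVs, and 2.88% and 29.5% of that of Gm14295.

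**Figure D2:**
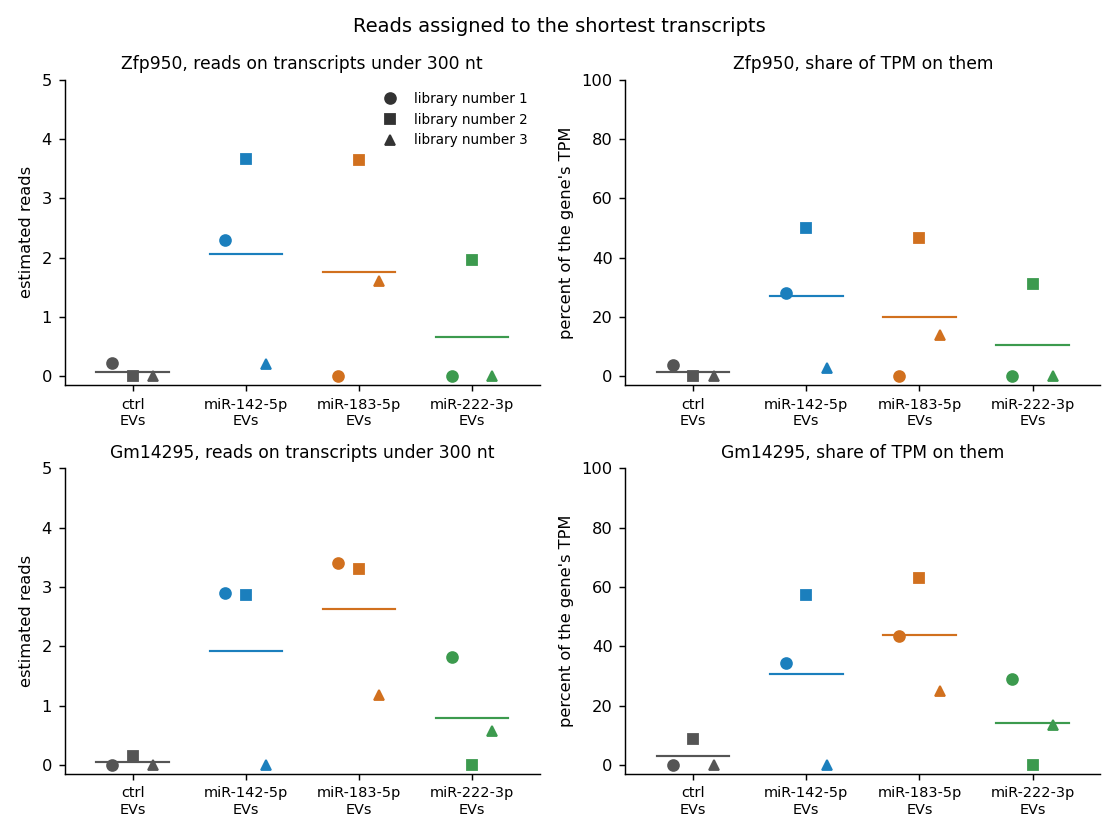
Estimated reads on transcripts under 300 nt (left) and their share of the gene's TPM in percent (right) for Zfp950 (top) and Gm14295 (bottom). Points are libraries, shapes give the library number, and lines are group means. The ctrl-EV libraries have at most 0.215 reads, while the miR-EV libraries have at most 3.67, and the share of TPM reaches 63.0%.

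The miR-EV values of both genes were closer to ctrl-EVs without the length correction, and also without transcripts under 300 nt. The first setting removes the whole correction, not only the weight of these few reads. Without the length correction, Zfp950 had 352, 242 and 317 normalised counts with ctrl-EVs and 155 to 431 (median 357) with miR-EVs, so the groups overlapped, and 5 of 9 miR-EV libraries exceeded their same-numbered ctrl-EV library. The log2 fold change over all miR-EVs, with the block, was then -0.021 (SE 0.13). With the length correction kept but all transcripts under 300 nt left out, an alternative chosen after seeing the data, it was 0.10 (SE 0.13), again with 5 of 9 pairs higher. Gm14295 over all miR-EVs gave 0.20 (SE 0.16) without the correction and 0.28 (SE 0.16) without the short transcripts, and with miR-183-5p-EVs 0.14 and 0.21 (SE 0.21 and 0.22) in place of 1.05. In both settings no member passed the threshold with the block in any comparison. Without the correction the shares of all tested genes called were 1.11% over all miR-EVs, 0.0431% after miR-222-3p-EVs, 0.237% after miR-183-5p-EVs and 0.0216% after miR-142-5p-EVs. Without the short transcripts, 137 of all tested genes were called higher and 69 lower over all miR-EVs. By mimic there were 1 higher and 2 lower after miR-222-3p-EVs, 41 and 9 after miR-183-5p-EVs, and 3 and 3 after miR-142-5p-EVs. With so few genes called, the counts of 0 members are not read as a result about them. With a correction for a trend with transcript length across all genes, the log2 fold change of Zfp950 over all miR-EVs stayed at 0.43. That of Gm14295 with miR-183-5p-EVs stayed at 1.10. When each of the 12 libraries was left out in turn, the log2 fold change with the block ran from 0.35 to 0.53 for Zfp950 over all miR-EVs and from 0.88 to 1.17 for Gm14295 with miR-183-5p-EVs.

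No other member passed the test with them. In the fits without the block, DESeq2 called 0 of 264 members at an adjusted p under 0.05 in each comparison, with 0.00719% of all tested genes called for miR-142-5p-EVs and 0.0% in the remaining 3 comparisons. At an unadjusted p under 0.05 there were 5 members over all miR-EVs, 0 after miR-222-3p-EVs, 4 after miR-183-5p-EVs and 3 after miR-142-5p-EVs. These are 1.89%, 0.0%, 1.52% and 1.14% of the members, against 1.66%, 0.726%, 0.992% and 0.525% of all tested genes, and edgeR called 0 members in each. With the block, DESeq2 called 0 members for miR-142-5p-EVs (background 0.0575%), Gm14295 alone for miR-183-5p-EVs (background 0.41%), 0 for miR-222-3p-EVs (background 0.0647%) and Zfp950 alone for all miR-EVs (background 1.6%). With the block, 27 members had an unadjusted p under 0.05 over all miR-EVs, 12 after miR-222-3p-EVs, 24 after miR-183-5p-EVs and 10 after miR-142-5p-EVs. In that order these are 10.2%, 4.55%, 9.09% and 3.79% of members, below the 13.6%, 6.53%, 10.1% and 5.86% of all tested genes. The edgeR quasi-likelihood test with the block called 0 members in each comparison. For edgeR, with or without the block, the share of all tested genes called is not given here. Nothing is therefore read from its counts of 0. DESeq2 with the block left some of the other 262 members without an adjusted p through its filter on mean counts. There were 42 over all miR-EVs, 198 after miR-222-3p-EVs, 17 after miR-183-5p-EVs and 0 after miR-142-5p-EVs. Because the rule chose Gm14295 and Zfp950 for these 2 calls, nothing is read from them.

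The fold changes of the 262 others centred near 0. With the block their median log2 fold change was -0.03 over all miR-EVs, -0.05 after miR-222-3p-EVs, -0.03 after miR-183-5p-EVs and -0.02 after miR-142-5p-EVs, and those of all tested genes lay between -0.008 and 0.0011. Over all miR-EVs, 114 were above 0 and 148 below, and they ran from -0.48 to 0.52. The 95% interval lay within a 1.5-fold change in either direction for 223 of 262 (85.1%). In the single comparisons the intervals of 179 to 193 members lay within that range. The lowest adjusted p among them was 0.0634 (DESeq2 with the block, all miR-EVs), that of Zfp959, whose log2 fold change was -0.42 (SE 0.13). With a correction for a trend with GC content added to the block, 3 members (1.14%) passed the threshold over all miR-EVs, against 1.92% of all tested genes. They were Zfp959 (-0.48), Zfp617 (-0.39) and Zfp335 (0.24), and Zfp950 was not among them. The blocked counts also moved with single ctrl-EV libraries. Without ctrl-EV library 3, 13 members (4.92%) were called over all miR-EVs, against 3.46% of all tested genes. Of these 13, 11 were lower, among them Zfp846 at -0.73 and Zfp62 at -0.50, whereas 186 of the 481 genes called in that fit were lower. Without ctrl-EV library 1 there were 2 (0.758%, against 1.98% of genes), Zfp871 at 0.44 and Zfp236 at 0.44.

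**Figure D3:**
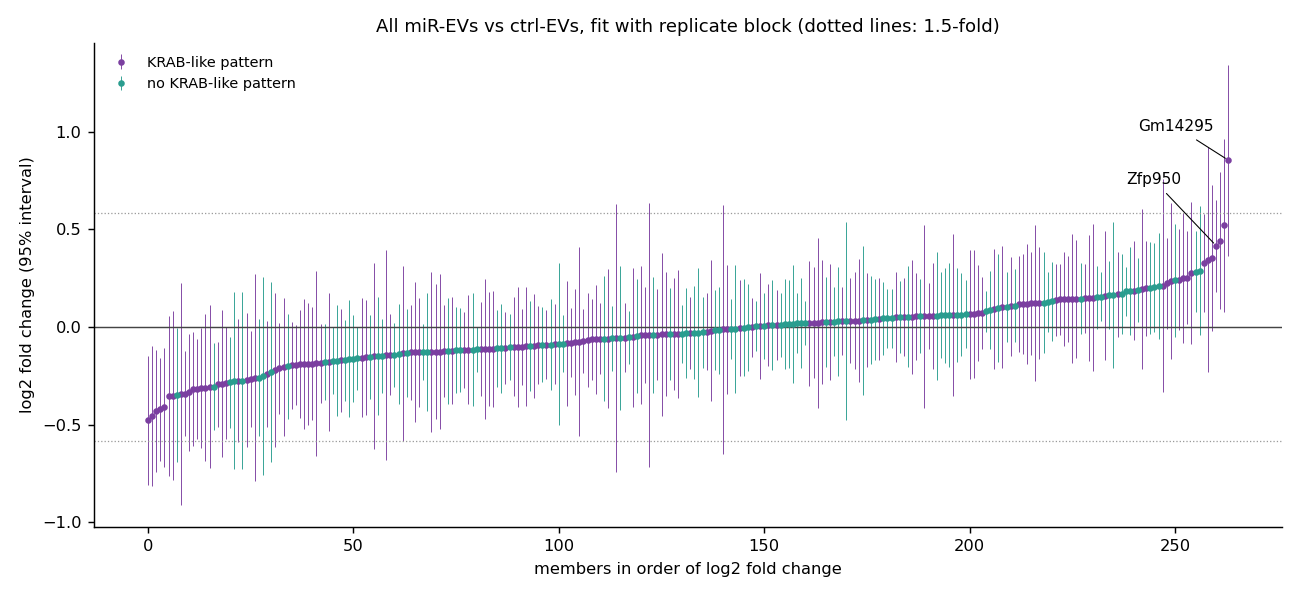
Log2 fold change over all miR-EVs against ctrl-EVs in the fit with the replicate block (vertical axis) for the 264 members in increasing order (horizontal axis), with 95% intervals, coloured by whether a KRAB-like pattern was found. Gm14295 has the highest value and Zfp950 the fourth, and most intervals stay between the dotted lines of a 1.5-fold change.

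Groups that did not overlap were found in few members. All 9 miR-EV libraries lay above all 3 ctrl-EV libraries for 2 members (0.758%), Zfp950 and Zfp488, against 0.173% of all tested genes. They lay below them for 1 member (0.379%), Zfp688, against 0.129%. Zfp950 had been selected for its rise over all miR-EVs, so nothing is read from these shares. Zfp488 and Zfp688 were singled out after their values were seen. Zfp488, a member with a single annotated transcript and no KRAB-like pattern, had 97.9 to 101 normalised counts with ctrl-EVs and 106 to 141 (median 113) with miR-EVs. Its log2 fold change with the block was 0.24 (SE 0.15), without the length correction 0.26 (SE 0.14), and it received no adjusted p from DESeq2. Zfp688 had 205, 239 and 255 normalised counts with ctrl-EVs and 111 to 203 (median 173) with miR-EVs. Its log2 fold change was -0.48 (SE 0.17, DESeq2 with the block, adjusted p = 0.102). Without the length correction it was -0.16 (SE 0.11).

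Length corrections of this size reached few other members. Over all miR-EVs, with the block, the correction moved the log2 fold change by more than 0.2 upwards in 12 members and downwards in 5, together 6.44%, against 6.54% of all tested genes. Its median effect on the members was -0.02. Transcripts under 300 nt are annotated in 12 members (4.55%) and in 7.60% of tested genes. They held over 20% of the TPM in at least 1 library for 8 members, of which 7 had fewer than 10 reads on them in every library. Besides Zfp950 and Gm14295, these were Zfp236, Zfp629, Zfp691, Zfp93, Zfp940 and Zfp965. Their changes went both ways: Zfp691, a member without a KRAB-like pattern, changed on the log2 scale by 0.16 with the correction, -0.07 without it and -0.07 without the short transcripts, and Zfp940 had -0.26, -0.12 and -0.11. Leaving out the short transcripts reduced the members moved upwards by more than 0.2 from 12 to 9 and left the 5 others.

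Shifts of this size were also found in members without such short transcripts. Zfp709, a KRAB-like member, changed on the log2 scale by 0.52 (SE 0.23) with the correction and 0.01 (SE 0.16) without it, and Zfp87, another KRAB-like member, 0.35 (SE 0.19) and -0.06 (SE 0.13), with adjusted p = 0.210 and 0.341 for the corrected values (DESeq2 with the block). Both were picked for these shifts. Among the 252 members without such a transcript, 9 were moved upwards by more than 0.2 and 5 downwards. Zfp703, without a KRAB-like pattern, went from -0.38 without the correction to 0.03 with it. Downward moves included those of Zfp558 (0.01 to -0.34), Zfp846 (-0.11 to -0.43) and Zfp688 (-0.16 to -0.48). These genes were also picked after their values were seen. The Zfp709 transcript of 7186 nt held 48.5% to 82.3% of the gene's TPM with ctrl-EVs and 30.8% to 53.8% with miR-EVs, ranges that overlapped.

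The mean transcript length itself was tested with limma on the 238 members, among 12159 genes, in which it differed between libraries. Without the block 0 members were called in each comparison, with 8 to 12 members (3.36% to 5.04%) at an unadjusted p under 0.05, against 2.57% to 3.81% of genes, and 0.00822% of genes called for miR-183-5p-EVs and 0.0% in the other 3 comparisons. With the block 1 member was called, Zfp367 with miR-183-5p-EVs, where 0.0164% of genes were called. No member was called for miR-142-5p-EVs or miR-222-3p-EVs, where the background was 0.0%, or for all miR-EVs, where it was 0.0164%, and 18, 16 and 25 members had an unadjusted p under 0.05. These are 7.56%, 6.72% and 10.5% of members, against 6.72%, 6.58% and 9.26% of genes. With miR-183-5p-EVs, 14 members (5.88%) had such a p with the block, against 8.46% of genes. Zfp367, a zinc finger transcription factor gene, had a shorter mean transcript length, with a log2 change of -0.35 (SE 0.02, limma with the block, adjusted p = 0.00944). Without the block the adjusted p was 0.147 (limma). Its full-length coding transcript of 3532 nt held 62.6%, 60.8% and 59.2% of its TPM with ctrl-EVs and 48.2%, 42.3% and 45.0% with miR-183-5p-EVs. The libraries of miR-142-5p-EVs had shares of 51.3%, 47.6% and 48.1%. Those of miR-222-3p-EVs had 55.5%, 52.7% and 48.5%, so that all 9 miR-EV libraries lay below all 3 ctrl-EV libraries. The remainder lay mainly on 2 non-coding transcripts of 641 and 562 nt. Its expression with miR-183-5p-EVs changed by 0.27 on the log2 scale (SE 0.13, DESeq2 with the block, adjusted p = 0.378). The length of Zfp950 changed by -0.48 (SE 0.19) over all miR-EVs and that of Gm14295 by -0.97 (SE 0.31) with miR-183-5p-EVs, neither of them called.

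**Figure D4:**
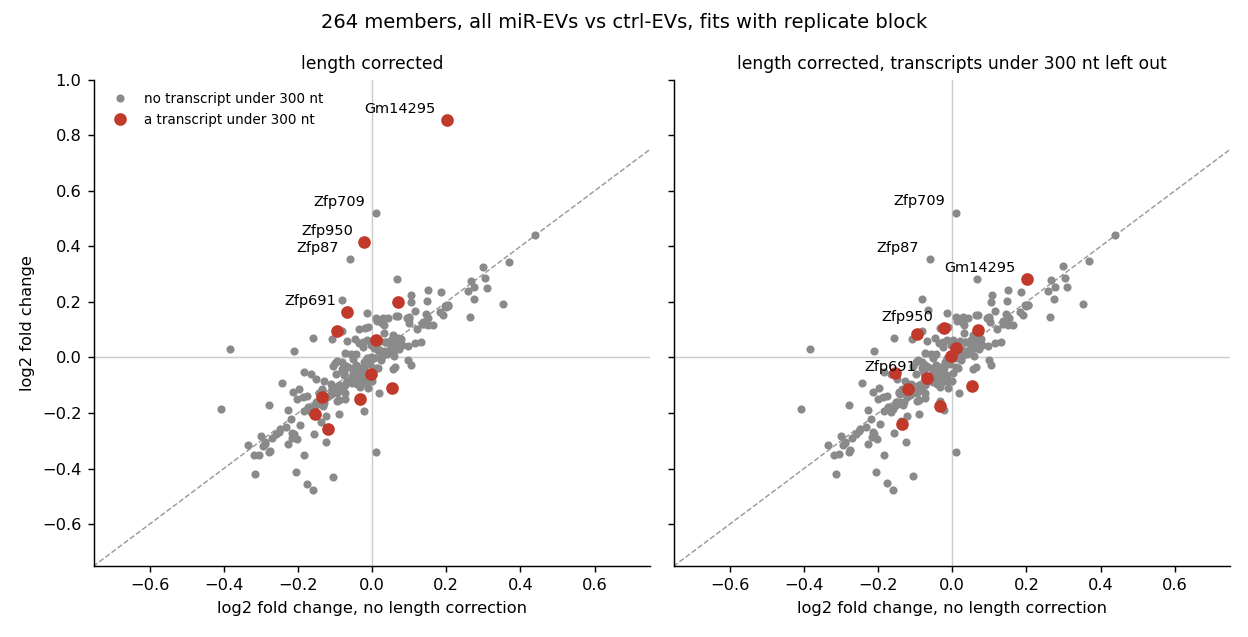
Log2 fold change over all miR-EVs without the length correction (horizontal axes) against the value with it (vertical axis), using all transcripts (left) or leaving out transcripts under 300 nt (right), for the 264 members in fits with the block. Red points are the 12 members with such a transcript, and the dashed line marks equal values. Gm14295 moves from 0.85 to 0.28 and Zfp950 from 0.42 to 0.10 between the panels, while Zfp709 stays at 0.52.

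By role, no listed member was called over all miR-EVs in the fits without and with the block, although Zfp335 passed with the GC correction. All 11 genes of a list of RNA and ribosome factors were members, and 0 of 11 were called with or without the block, with 5 above 0 over all miR-EVs and a median log2 fold change of -0.03. Zfp106, an RNA-binding protein, had 8730 to 12370 normalised counts with ctrl-EVs and 9693 to 12755 with miR-EVs, and its log2 fold change with the block was 0.09 (SE 0.10). Zfp207, a splicing and mitotic spindle factor, had 0.16 (SE 0.06) and was higher in 9 of 9 pairs, with adjusted p = 0.184 (DESeq2 with the block). The pairs reuse the same ctrl-EV libraries, and the share of all tested genes with 9 of 9 pairs is not given here. Counts of pairs, here and below, are therefore a description only. Zfp36, known as tristetraprolin, which speeds the decay of inflammatory mRNAs, had 0.19 (SE 0.12) and was higher in 6 of 9 pairs. Zfp598, the ubiquitin ligase that marks stalled ribosomes, had -0.11 (SE 0.06) and was lower in 9 of 9 pairs, with adjusted p = 0.315 (DESeq2 with the block). The largest difference of the list was that of Zfp593, a ribosome maturation factor, at -0.30 (SE 0.11, adjusted p = 0.129 by DESeq2 with the block).

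Of 8 KRAB genes listed as repressors of retroelements or imprinted genes, 6 were members and Zfp57 and Zfp708 lay under the threshold. None of the 6 was called. Zfp445, a guardian of imprinted loci and at 80.5 TPM the highest of them, changed on the log2 scale by 0.14 (SE 0.11) over all miR-EVs with the block. Zfp809, which silences retroviruses that use a proline tRNA primer, had 0.07 (SE 0.09). Zfp568, a repressor of a placental Igf2 transcript, had 0.14 (SE 0.17), Zfp932 0.12 (SE 0.15), Zfp69 0.07 (SE 0.17) and Zfp961 -0.08 (SE 0.09). Of 22 listed transcription and chromatin regulators, 18 were members and 0 were called, with 13 above 0 and a median of 0.04. Zfp592, a subunit of a chromatin reader complex, was highest at 0.28 (SE 0.11, adjusted p = 0.129 by DESeq2 with the block) and higher in 9 of 9 pairs. Zfp410, an activator of the chromatin remodeller gene Chd4, was lowest at -0.14 (SE 0.08).

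The corepressors through which KRAB proteins act were measured from a list of 27 genes, all of them expressed. Without the block 0 of 27 were called in any comparison. With it, DESeq2 called 3 over all miR-EVs, where 1.6% of all tested genes were called, and 2 with miR-183-5p-EVs, where 0.41% were, all of them higher. The edgeR test with the block called 0 of these 3 genes in either comparison. Its share of all tested genes called is not given here, so nothing is read from that 0. Over all miR-EVs, Morc3, a nuclear body ATPase, changed on the log2 scale by 0.41 (SE 0.09, adjusted p = 0.00254), Dnmt3a, a DNA methyltransferase, by 0.40 (SE 0.10, adjusted p = 0.0104), and Cbx5, the heterochromatin protein HP1 alpha, by 0.30 (SE 0.07, adjusted p = 0.00705), by DESeq2 with the block. By edgeR with the block the adjusted p was 0.139 for Morc3, 0.191 for Dnmt3a and 0.177 for Cbx5. Without the length correction only Cbx5 was called over all miR-EVs and only Dnmt3a with miR-183-5p-EVs. The miR-183-5p-EV call of Morc3 (adjusted p = 0.0449, DESeq2 with the block) was also lost with the GC correction (0.0929) and without transcripts under 300 nt (0.0754), a setting in which Atf7ip was called instead. Trim28, the corepressor bound by the KRAB domain itself, had 0.03 (SE 0.07) at a mean of 199 TPM, and Setdb1, its histone methyltransferase partner, had 0.15 (SE 0.06, adjusted p = 0.129). The median of the list was 0.05.

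Other zinc finger families were measured in the same way. Of 32 Zbtb genes and 16 Zkscan and Zscan genes at the same read threshold, 0 were called with the block in any comparison, and their medians over all miR-EVs were 0.05 and -0.04. Among the 24 protein-coding genes within 2 Mb of Gm14295 at that threshold, 0 were called with the block. Their median over all miR-EVs was 0.19, and 20 of 24 lay above 0. Leaving out transcripts under 300 nt changed the median to 0.15, and the GC correction changed it to 0.11. The members of this neighbourhood share from 39.8% of their 31-base words in Zfp931 to 97.9% in Zfp965 with other genes, so their estimated counts are not independent of each other.

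The library number was called in many members. A likelihood ratio test of the number called 171 of 264 members (64.8%), against a background of 69.4% of all tested genes. Number 2 was the lowest of the 3 numbers in 109 of the called members and the highest in 46, or 63.7% and 26.9%, whereas among all called genes these shares were 45.5% and 43.9%. The median log2 difference between number 2 and the mean of numbers 1 and 3 was -0.19 for all members, -0.29 for those with a KRAB-like pattern and -0.04 for the others, and 0.01 for all tested genes. Members less than 100 kb from another family gene had -0.33 and the others -0.04, groups that overlap with the former ones. Of 29 called members more than 2-fold lower in number 2, 24 had a KRAB-like pattern, and of 6 more than 2-fold higher, 2 had one. Members so called were 10.98% of all members for the lower and 2.27% for the higher ones, against 8.41% and 8.48% of all tested genes. What the number stands for is not stated.

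The following examples were chosen after their values were seen. Zfp959, a KRAB-like member, had 75.2, 47.6, 62.8 and 37.8 normalised counts in the number 2 libraries (ctrl-EVs first, then the mimics by rising miRNA number), and 180 to 309 in the 8 others. Zfp617, also KRAB-like, had 273, 181, 184 and 174 against 447 to 662. Zfp335, a transcription factor needed for T cell and neural development, went the other way, with 4144, 4945, 5123 and 4817 in number 2 against 1546 to 2237. Zfp36 had 1312, 1958, 2028 and 1906 in number 2 against 515 to 889.6 in the others. The 4 libraries with number 2 did not overlap the other 8 in any of these genes. Across the called members, all 4 lay below the other 8 in 71 (41.5%) and above them in 32 (18.7%), against 29.9% and 28.4% of all genes called for the number.

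**Figure D5:**
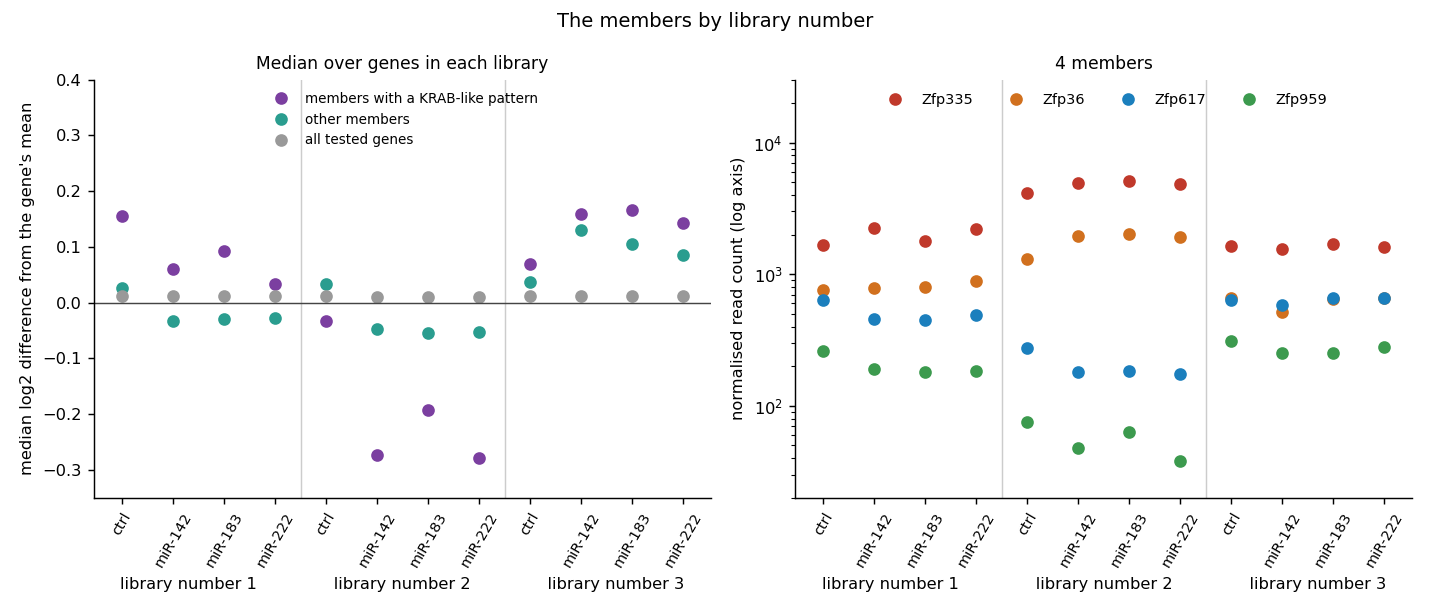
Left, median over genes of the log2 difference between a library's normalised count and the gene's mean (vertical axis), for members with and without a KRAB-like pattern and for all tested genes, with libraries ordered by number and then group. Right, normalised counts (log axis) of Zfp335, Zfp36, Zfp617 and Zfp959. Within each group, members with a KRAB-like pattern lie lowest in the library with number 2. There they lie at -0.03 with ctrl-EVs and at -0.19 to -0.28 with miR-EVs, while all tested genes stay at 0.01.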

How the data were processed

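Polyadenylated RNA of 12 RAW 264.7 libraries was prepared by the authors with a stranded mRNA kit and read pairs were assigned to Ensembl mouse transcripts with Salmon. The authors deposited per transcript a listed length, an effective length, a TPM value and an estimated count, which is fractional and unscaled. The submitters' notes name GRCh38, a human build, although the transcript identifiers are those of mouse. Identifiers linked 116622 of 118783 transcripts (98.2%) to 35865 genes of GRCm38 as annotated in GENCODE vM21, and the others held 0.605% to 0.707% of counts. Replicates were not pooled by the authors.

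Gene sums of the estimated counts were rounded, and genes reaching 10 counts in 3 or more libraries were tested with DESeq2 1.42.0 (Wald test, two-sided, all 12 libraries in 1 fit) with the TPM-weighted mean effective length per gene and library as an offset, called here the length correction, and adjusted p-values (Benjamini-Hochberg) over all tested genes. An adjusted p that DESeq2 left empty was kept as empty. Mean transcript length on the log2 scale was tested with limma 3.58.1, library number with a DESeq2 likelihood ratio test, and edgeR 4.0.16 served as an alternative. The library number from the titles was added as a block in an alternative fit, since libraries sharing a number deviated together, with correlations of 0.409 to 0.797 over 18 pairs (mean 0.608). Changes are log2 fold changes with standard errors, and intervals are 95% Wald intervals. Intervals and floors cover counting error and the spread between libraries only. Library deviations were computed on log2 of the normalised count plus 1. Other alternatives were a fit without the length offset, corrections for trends with length or GC content, other normalization factors and count filters, other member thresholds, and fits leaving out libraries. The scripts were tested on simulated data.

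The members and gene lists were chosen with earlier results of these data known. Genes were named by rule: Zfp950 and Gm14295, members called with the block for expression or length (at most 5 in each direction), the 5 highest by TPM, 3 on each side of the threshold, and the members of the role lists. Other names are marked as chosen after their values were seen. Finger and KRAB-like patterns and shared 31-base words were computed from GENCODE transcript sequences. Figures were drawn with matplotlib 3.10.9.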

Additional observations from a re-analysis of the deposited data

How the results depend on the processing

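Without the block, the count of called members was 0 in every comparison under each normalization, filter, threshold and tool tried and when any library was left out (range 0 to 0), and 0 members changed in mean length. In the main fits without the block, 0.00719% of all tested genes were called for miR-142-5p-EVs and 0.0% in the other comparisons. The counts of 0 are therefore not read as a result about the members. The number test called 151 to 182 members with a library left out. With the replicate block 1 member was called for miR-183-5p-EVs and 1 for all miR-EVs, as also with the length trend added (1 and 1), 3 for all miR-EVs with the GC trend added, and 1 member changed in length for miR-183-5p-EVs with or without transcripts under 300 nt. With the block and libraries left out, the counts ran from 0 to 3 for miR-142-5p-EVs, 0 to 4 for miR-183-5p-EVs, 0 to 3 for miR-222-3p-EVs and 0 to 13 for all miR-EVs. For all miR-EVs, 2 members were called without ctrl-EV library 1, miR-222-3p-EV library 1 or 2, or all libraries numbered 1. Without ctrl-EV library 3 there were 13. Without all libraries numbered 2, those called over all miR-EVs were Zfp292, Zfp652, Zfp934, Zfp971 and Gm14295. Without those numbered 3 they were Zfp62, Zfp426, Zfp617 and Zfp846. Without miR-142-5p-EV library 2 they were Zfp950, Zfp652 and Gm14295. Among the fits leaving out libraries, shares of all tested genes are given only for those without ctrl-EV library 1 or 3. Without library 3, 1.14% of members were called for miR-142-5p-EVs, against 0.381% of genes. For miR-183-5p-EVs the shares were 1.52% and 1.06% (without library 1, 1.52% and 1.5%), and for miR-222-3p-EVs 1.14% and 0.669%. For the remaining fits no share is given, so nothing is read from the counts or the genes named. The sign of the Zfp950 change reversed without the length correction, to -0.015 for miR-142-5p-EVs, and with the block to -0.088 for miR-142-5p-EVs, -0.013 for miR-222-3p-EVs and -0.021 for all miR-EVs. Leaving out transcripts under 300 nt and each library in the blocked fits were alternatives added after seeing the data. The number of libraries per group and the few reads on short transcripts limit these values.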
